A study of Mus musculus with 12 samples.

Results

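Genes that mark the stem and progenitor cells of the intestinal crypt, and that are commonly read as targets of Wnt signaling, were followed in the mouse cecum after cauterization. The 8 genes were Lgr5, Ascl2, Axin2, Smoc2, Lrig1, Ephb2, Sox9 and Cdca7, chosen by symbol among the 37074 named genes of the array, and all of their 18 probes were examined among 56605. Total RNA came from mouse cecum in 4 groups of 3 arrays each. One group was the sham control, taken right after the sham operation (0 h by the study's methods). The others were sampled when 3 h, 12 h or 72 h had passed since the cecum was cauterized with bipolar forceps, through a midline incision under pentobarbital. The methods name C57BL/6 mice, and no altered allele and no other agent is given for any of the 4 groups. Their age, and whether animals were pooled, was not given in the sources used here. Because the sham tissue carries no later time, time since surgery and cauterization cannot be told apart in any comparison with it. The study describes the samples as biological triplicates, and p-values measure the spread between these samples.

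The large intestine renews its lining from crypts, pits whose bottom holds dividing stem cells. Wnt proteins secreted by the surrounding stroma bind Frizzled and LRP receptors on these cells, β-catenin accumulates and binds TCF factors in the nucleus, and target genes are transcribed. R-spondins bind receptors of the Lgr family and strengthen the signal by removing the ligases that degrade Frizzled. After injury the epithelium can lose its Lgr5 stem cells and regrow from cells that carry fetal and wound-associated genes.

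Each gene was read through DNA probes of 60 bases. The first 30 bases of the probes on which the results below turn are printed 5′ to 3′ as the scanner output gives them, in lower case with nothing marked, because probes of 1 gene differed for Lgr5 and Smoc2 and because the second probe of Ascl2 was not read above background. Coordinates are those of the mm9 build in the same output, and the part of the gene they fall in was not analysed here.
Lgr5, probe 1 (chr10:114887403-114887462, minus strand): catgtaaatacgtagtgcttgtaaatagat
Lgr5, probe 2 (chr10:114899782-114899841, minus strand): gcaccttttgctttccagagatttgtctta
Ascl2, probe 1 (chr7:150152734-150152793, minus strand): ggccagtgtgggaaccctgctgttgcaaag
Ascl2, probe 2 (chr7:150176638-150176697, minus strand): tgtagccactgctcatgttcctggaaacac
Axin2, probe 1 (chr11:108811980-108812039, plus strand): ttctactttagactgtaaattatgcattat
Smoc2, probe 1 (chr17:14541664-14541723, plus strand): gctcatgtcaatgctgtctacaaacgagta
Smoc2, probe 3 (chr17:14463077-14463136, plus strand): tacaaattgtctgactccctcagtgtttca
Sox9, probe 1 (chr11:112647560-112647619, plus strand): ttggggggtgagctttgattaattccccag

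The 250 bases upstream of the start of Axin2 and Ascl2, both lower at 12 h, are shown because members that moved together can share promoter letters. They are RefSeq sequences on GRCm38.p6.
Axin2 (chr11:108920099-108920348, plus strand): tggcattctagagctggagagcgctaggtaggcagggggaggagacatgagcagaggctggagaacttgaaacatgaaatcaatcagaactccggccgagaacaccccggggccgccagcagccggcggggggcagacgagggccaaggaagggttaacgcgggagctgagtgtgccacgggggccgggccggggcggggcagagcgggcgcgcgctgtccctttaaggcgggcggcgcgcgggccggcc
Ascl2 (chr7:142969265-142969514, minus strand): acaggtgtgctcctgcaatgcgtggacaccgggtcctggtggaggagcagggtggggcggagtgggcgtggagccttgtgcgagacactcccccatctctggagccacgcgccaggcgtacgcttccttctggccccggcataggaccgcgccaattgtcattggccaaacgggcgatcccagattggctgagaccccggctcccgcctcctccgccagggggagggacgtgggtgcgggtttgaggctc
The core of the TCF site, TCAAAG or CTTTGA on the other strand, was searched in this window. It was in 13.8% of 32851 promoters of the same length (4544 of them), and in 0 of the 5 members with an entry, namely Cdca7, Ephb2, Lrig1, Ascl2 and Axin2. These letters are therefore not in these windows, which says nothing of TCF binding elsewhere. The window of Axin2 was 69.2% G and C with 24 CpG pairs, and that of Ascl2 was 67.6% with 19.

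Levels are log2 intensities relative to the 75th percentile of the same array, so that a level of 0 equals that percentile. Between 60.2% and 65.2% of probes were well above background on an array and 0 spots were saturated, and the precision is set by how many arrays there were. The labelled tissue was borne out by its markers, since 12 of 12 epithelial and 6 of 6 large intestine markers were well above background on all 12 arrays. The labelled male sex was not. Xist, which females transcribe from the inactive X chromosome, was read above background on all 12 arrays. Of the Y-linked genes, Ddx3y and Eif2s3y passed on 0 arrays, 1 Uty probe passed on 1 array, and 1 of the 6 Kdm5d probes passed on 12. The arrays lay on 2 slides. Slide 1 held the sham and 3 h arrays and replicates 1 and 2 of 12 h, and slide 2 held replicate 3 of 12 h and all 72 h arrays. Values at 72 h against the earlier groups can therefore be separated from the slide only through 1 array.

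The 8 genes did not move as 1 group. Axin2 and Ascl2 fell by 12 h, and Lgr5 was lower at 3 h and 12 h and was back at its sham level at 72 h. Smoc2 fell at 3 h and rose above sham at 72 h. Sox9 rose at 3 h alone, Ephb2 was higher at 3 h by less than 2-fold, and Lrig1 stayed within 0.26 of sham at all times. Because the tissue was bulk, fewer cells of a type and less RNA per cell cannot be told apart.

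**Figure D1:**
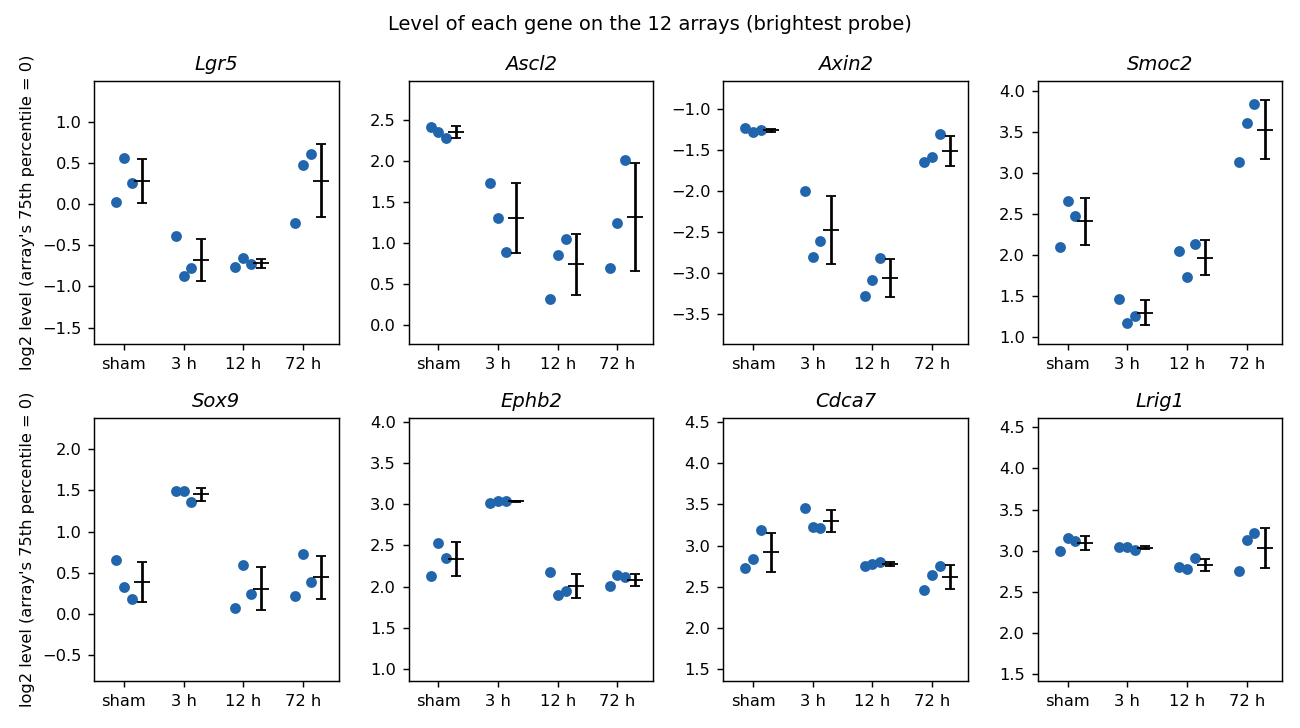
Level of each gene on each array by its brightest probe, as log2 relative to the array's 75th percentile, for sham, 3 h, 12 h and 72 h. Points are arrays, the bar beside them is the mean ± SD (n = 3), and every panel spans the same number of log2 units; Lgr5, Ascl2 and Axin2 dip, Smoc2 dips and then climbs, and Sox9 and Ephb2 peak at 3 h.

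Lgr5 encodes the R-spondin receptor that defines the stem cells at the crypt base. Its level on the 3 sham arrays was 0.03, 0.56 and 0.26. The 3 h arrays gave -0.39, -0.87 and -0.78, and the 12 h arrays -0.77, -0.66 and -0.72. By 72 h it was -0.22, 0.47 and 0.61. All 6 arrays at 3 h and 12 h lay below all sham and 72 h arrays, and the 72 h arrays overlapped sham. The log2 difference from sham was -0.96 ± 0.23 (SE) at 3 h (adjusted p = 0.015, fold 1.95), which missed the 2-fold threshold, and -1.0 ± 0.23 at 12 h (adjusted p = 0.0108), which passed it with a fold barely above 2. At 72 h it was 0.00, with a 95% interval from -0.50 to 0.50. From 12 h to 72 h Lgr5 rose by 1.0 (adjusted p = 0.0134). Either call was lost without some single arrays, at -0.86 without replicate 2 of sham, -0.97 and -1.0 without replicates 1 and 3 of 12 h, and for 72 h against 12 h at 0.98 without replicate 1 of 12 h and 0.91 and 0.84 without replicates 2 and 3 of 72 h. The 12 h call was also lost with slide as a block at an unmoved difference of -1.0 (adjusted p = 0.0292). Within slide 2 the difference between 72 h and 12 h was 1.01, from 1 array of 12 h.

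Axin2 encodes a scaffold of the complex that destroys β-catenin and is itself switched on by Wnt, which makes it a common readout of the pathway. Its sham levels lay close together at -1.24, -1.28 and -1.26. On the 3 h arrays they were -2.0, -2.80 and -2.60, and on the 12 h arrays -3.27, -3.08 and -2.81. Those at 72 h were -1.64, -1.59 and -1.31. All arrays after cauterization were below the sham arrays, with the 12 h arrays lowest on average and the 72 h arrays nearest to sham. Axin2 fell by 1.21 on the log2 scale at 3 h (SE 0.20, adjusted p = 0.00282) and by 1.79 at 12 h (adjusted p = 0.00024), a fold of 3.47. At 72 h the difference was -0.25 (95% interval -0.70 to 0.19, adjusted p = 0.429), after a rise of 1.54 from 12 h (adjusted p = 0.000993). Neighbouring times 3 h and 12 h differed by -0.59 (adjusted p = 0.107). With normexp background correction both falls kept an adjusted p below 0.05 but shrank below 2-fold, to -0.54 and -0.84.

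Ascl2 encodes a transcription factor that maintains stem cell identity in the crypt. Sham levels were 2.42, 2.35 and 2.28. The 3 h arrays gave 1.73, 1.30 and 0.89, and the 12 h arrays 0.32, 0.86 and 1.05. The 72 h arrays stood at 0.70, 1.24 and 2.01 and were the most spread of the 4 groups (SD 0.66). No array after cauterization reached the lowest sham array. Ascl2 fell by 1.61 at 12 h (SE 0.33, adjusted p = 0.00626), a fold of 3.05. The differences at 3 h (-1.04, adjusted p = 0.0506) and 72 h (-1.03, adjusted p = 0.0497) were of the same size and fell on either side of the threshold. The 72 h call was lost under 19 of 26 alternatives (without replicate 1 of 72 h the difference was -0.72, adjusted p = 0.159), while the 3 h difference passed under 11 of 27 (without replicate 1 of 3 h it was -1.25, adjusted p = 0.0436). Unlike for Axin2, the rise from 12 h to 72 h, 0.58 with an interval from -0.15 to 1.30, did not pass (adjusted p = 0.263), and whether the 2 genes differ in it was not tested.

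Smoc2 encodes a secreted calcium-binding matrix protein found in Lgr5 stem cells and also in stromal cells. The sham arrays gave 2.10, 2.66 and 2.48, and the 3 h arrays 1.47, 1.17 and 1.25. The 12 h arrays gave 2.05, 1.73 and 2.13, and those at 72 h 3.13, 3.61 and 3.84, above every array of the other groups, and the 3 h arrays lay below every other array. Smoc2 fell by 1.11 at 3 h (SE 0.21, adjusted p = 0.00515) and rose to 1.12 above sham at 72 h (adjusted p = 0.00479). The rise was 1.55 from 12 h (adjusted p = 0.00114) and 2.23 from 3 h (adjusted p = 0.000103), a fold of 4.68. Its 12 h level lay between, at -0.44 from sham (adjusted p = 0.177) and 0.67 from 3 h (adjusted p = 0.0774). Without replicate 2 of sham the 3 h fall was -0.99, below 2-fold. With slide as a block the 72 h difference from sham was 0.87 (adjusted p = 0.256), and without replicate 1 of sham or replicate 3 of 72 h it was 0.96, below 2-fold. Smoc2 is also stromal, and fibroblast markers are given beside it. Their summed level was 163 to 176 on sham arrays, 108 to 133 at 3 h, 95.1 to 103 at 12 h and 424 to 947 at 72 h, when 6 of 8 rose, among them Col1a1 by 3.00 and Col3a1 by 2.08. At 12 h, when Smoc2 was not called, 4 of these markers fell. The part of the fibroblast markers in the Smoc2 values was not tested.

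Sox9 encodes a transcription factor of crypt base and progenitor cells. Its levels were 0.66, 0.32 and 0.18 in sham and 1.49, 1.5 and 1.36 at 3 h. They returned to 0.07, 0.59 and 0.25 at 12 h and to 0.22, 0.72 and 0.39 at 72 h. The 3 h arrays stood above all 9 others, which overlapped. Sox9 rose by 1.06 at 3 h (SE 0.18, adjusted p = 0.00321), then fell by 1.15 from 3 h to 12 h (adjusted p = 0.00582). At 12 h it differed from sham by -0.08 (95% interval -0.49 to 0.32) and at 72 h by 0.06 (-0.35 to 0.46). The rise passed 2-fold narrowly, and its call was lost under 7 of 27 alternatives. It was 0.96 without replicate 3 of sham (adjusted p = 0.0119) and 0.996 with quantile normalization. The percentile over probes above background gave 0.95, normexp 0.93 and the mean of all probes 0.95. Between 3 h and 72 h Sox9 fell by 1.01 (adjusted p = 0.00257), and this dropped below 2-fold (-0.99 to -0.90) without replicate 1 or 2 of 3 h or replicate 1 or 3 of 72 h. Relative to epithelial markers it was -0.07 (adjusted p = 0.761).

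Ephb2 encodes a receptor tyrosine kinase that keeps proliferating cells in the lower crypt. Sham levels were 2.13, 2.53 and 2.34, and the 3 h arrays were almost equal at 3.02, 3.04 and 3.04. They were 2.17, 1.90 and 1.95 at 12 h and 2.0, 2.14 and 2.11 at 72 h. The 3 h arrays stood above the other 9. The difference from sham at 3 h was 0.70 (SE 0.12, adjusted p = 0.00394), under 2-fold, and Ephb2 fell by 1.03 from 3 h to 12 h (adjusted p = 0.00196), which was -1.0 and just under 2-fold on slide 1 alone (adjusted p = 0.0246), and -0.97 without replicate 2 of 12 h. Neither 12 h (-0.33) nor 72 h (-0.25) passed against sham.

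Cdca7, a proliferation-associated gene named for the cell division cycle, was also highest at 3 h. It lay between 2.73 and 3.19 on the sham arrays and between 3.21 and 3.45 at 3 h. The 12 h arrays spanned 2.76 to 2.80 and the 72 h arrays 2.46 to 2.75. The 3 h arrays were above all others, and the 12 h and 72 h arrays overlapped sham. The 3 h difference was 0.38 (adjusted p = 0.0894), and 12 h against 3 h gave -0.52 (adjusted p = 0.0468), below 2-fold. Lrig1, an inhibitor of ErbB receptors that marks a quieter stem cell population, was between 2.75 and 3.21 on all 12 arrays, with the 12 h arrays just below the sham arrays and the others overlapping them. Its differences from sham were -0.06, -0.26 and -0.06, with intervals that reached no further than -0.54 and 0.22.

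A gene was called when its fold passed 2 and its adjusted p was below 0.05. At 3 h, 3 of the 8 were called, 1 higher and 2 lower, where 7.37% of all genes were called (3.26% higher, 4.11% lower). At 12 h, 3 were called and all were lower, where the share of all genes was 9.06% (4.1% higher, 4.96% lower). At 72 h, 2 were called, Smoc2 higher and Ascl2 lower, against 8.85% of all genes (4.55% higher, 4.3% lower). Between time points, 2 fell from 3 h to 12 h (Sox9 and Ephb2), against 3.46% of genes called (1.89% higher, 1.56% lower). From 12 h to 72 h, 3 rose (Lgr5, Axin2 and Smoc2), against 7.52% (4.33% higher, 3.19% lower). From 3 h to 72 h Smoc2 rose and Sox9 fell, where 11.7% of genes were called (6.19% higher, 5.51% lower). Among the 4 groups, 7 of the 8 differed in an F-test at an adjusted p below 0.05, all except Lrig1 (adjusted p = 0.30), where 39.3% of all genes did. These shares include genes with dim probes, while the brightest probes of the 8 were well above background on all 12 arrays. After removal of dim probes, 15397 of 23849 genes passed the F-test. Calls against sham then numbered 1160 higher, 1444 lower (3 h), 1430 higher, 1688 lower (12 h) and 1632 higher, 1259 lower (72 h). The 8 had a median difference from sham of -0.51 (3 h), -0.38 (12 h) and -0.15 (72 h), and that of all genes was 0.08, -0.01 and -0.14. The comparisons with sham share the sham arrays. Some counts below use an adjusted p below 0.05 with no fold threshold. By that rule, of all 37074 genes 3336 were higher and 3597 lower at 3 h. At 12 h 3336 were higher and 4514 lower, and at 72 h 2954 were higher and 4725 lower.

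**Figure D2:**
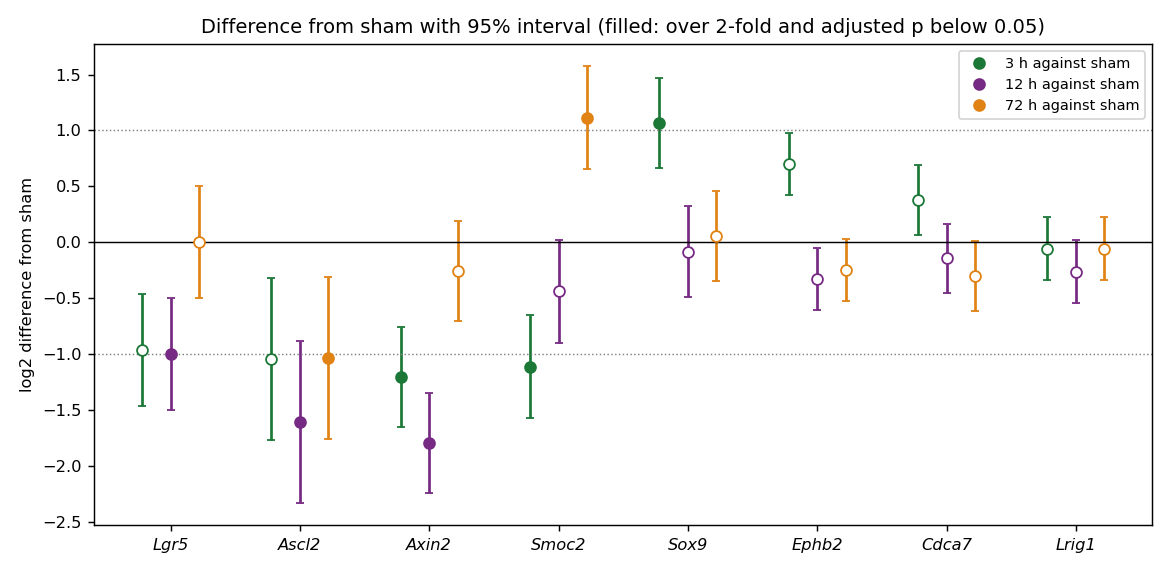
Log2 difference from sham of each gene at the 3 times with its 95% interval from the limma fit (n = 3 arrays a group); filled points passed the call, and dotted lines mark 2-fold. Axin2 is lowest at 12 h (-1.79), Sox9 is above 2-fold at 3 h (1.06), and the intervals of Lrig1 include 0 at every time.

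Each of the genes had more than 1 probe, and the probes differed in part. The second probe of Lgr5, which was dimmer and well above background on 11 arrays, fell by 1.89 at 3 h (adjusted p = 0.0028) and by 1.44 at 12 h (adjusted p = 0.0091), and stood at -0.62 at 72 h (adjusted p = 0.207). The first 2 probes of Smoc2 gave nearly the same course, with -1.0, -0.41 and 1.04 by the second. The third, designed on a separate cDNA, gave -0.20, -0.98 and 0.27 in the order of the times, and its lowest time was 12 h and not 3 h. The second probe of Axin2 was well above background on the 3 sham arrays, on 1 array at 3 h and on 0 at 12 h and 72 h. Its differences from sham were -1.10 at 3 h (adjusted p = 0.152), -1.80 at 12 h (adjusted p = 0.0287) and -1.42 at 72 h (adjusted p = 0.0737). The size of these falls is uncertain, because the later levels were not read above background. At 72 h this probe had thus not returned to a readable level, while the first probe stood at -0.25 from sham. Sox9 rose by 0.84 at 3 h by its second probe, below 2-fold. For Ephb2 the second probe gave 0.19 at 3 h (adjusted p = 0.292) and -0.55 at 72 h. The second probe of Ascl2 and the third of Cdca7 were well above background on 0 arrays and carry no reading, and both probes of Lrig1 agreed within 0.16 at each time.

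**Figure D3:**
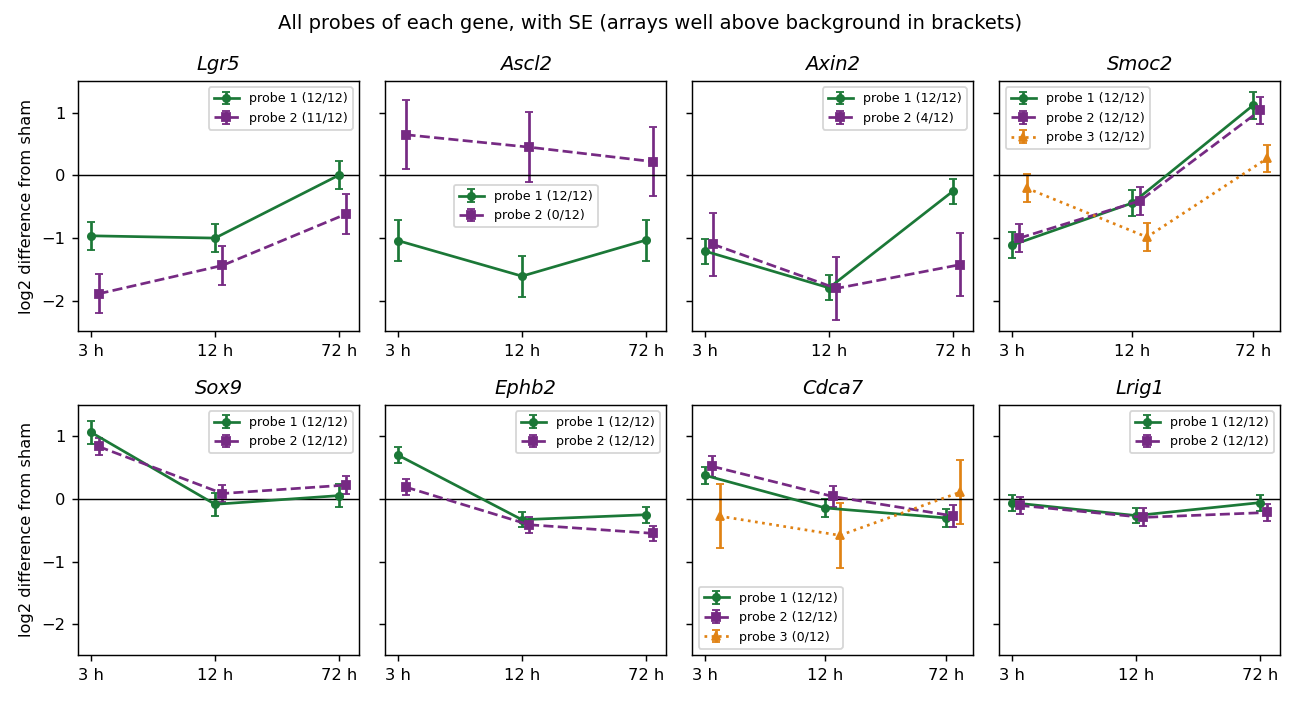
Log2 difference from sham at the 3 times for every probe of each gene, with SE from the limma fit; brackets give the number of the 12 arrays on which the probe was well above background. Both Lgr5 probes are low at 3 h and 12 h, while the third Smoc2 probe departs from the first 2 at 3 h.

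A difference between 2 genes on the same array does not depend on how arrays are scaled. These pairs were picked after the values were seen and carry no test. Sox9 minus Lgr5 was 0.63, -0.23 and -0.08 on the sham arrays and 1.88, 2.37 and 2.14 at 3 h. The 12 h arrays gave 0.84, 1.25 and 0.97, and the 72 h arrays 0.44, 0.25 and -0.22. The 3 h arrays were thus apart from all others, and only sham and 72 h overlapped. Smoc2 minus Ascl2 was 0.06 ± 0.34 (SD, n = 3) in sham, -0.01 ± 0.33 at 3 h and 1.23 ± 0.44 at 12 h. By 72 h it had reached 2.21 ± 0.33, and the 12 h and 72 h arrays lay above all sham and 3 h arrays.

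The epithelial content of the tissue was read from 12 markers. Their summed level was 1651 to 1858 on sham arrays, 2317 to 2507 at 3 h, 1801 to 2132 at 12 h and 1002 to 1373 at 72 h. Against sham, 1 rose at 3 h (Krt18, a keratin, by 1.17), 0 were called at 12 h (3 passed an adjusted p below 0.05 in limma with no fold threshold) and 1 fell at 72 h (Cdx2, an intestinal identity factor, -1.01). The lower Lgr5, Axin2 and Ascl2 levels at 3 h and 12 h stood beside epithelial marker sums that overlapped or exceeded those of sham. These sums are linear, so that bright markers weigh most, and they cover the epithelium as a whole. The part of epithelial content in the lower levels was not tested. Markers of differentiated large intestine took another course. They summed to 1092 to 1163 in sham and 1093 to 1212 at 3 h, and to 616 to 838 at 12 h and 402 to 551 at 72 h, when 2 and 5 of the 6 fell. The part of these markers in the 12 h and 72 h values of the 8 genes was not tested. When levels were set relative to the mean of these 12 markers, which moved the median of all genes to -0.33, -0.14 and 0.39, 4 members were lower at 3 h (Lgr5 -1.37, Ascl2 -1.45, Axin2 -1.62 and Smoc2 -1.52). Sox9 was then 0.65 and not called. At 12 h the same 3 as before were lower by this scale. At 72 h Smoc2 alone was called (1.64), Ascl2 was -0.51 (adjusted p = 0.206), and the differences of Axin2, Ephb2, Cdca7 and Lrig1 turned positive without a call. From 3 h to 12 h Sox9 (-0.86) and Ephb2 (-0.75) were then not called. By this scale 693 of all 37074 genes were called higher and 3957 lower at 3 h. At 12 h 1263 were higher and 2224 lower, and at 72 h 3574 were higher and 411 lower. From 3 h to 12 h 1184 were higher and 210 lower. Among the other cells of the sample, smooth muscle markers summed to 534 to 570 in sham, 292 to 355 at 3 h, 170 to 273 at 12 h and 195 to 259 at 72 h, and macrophage markers, of which 5 of 5 rose at 72 h, to 350 to 377 then and 103 to 125 in sham.

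**Figure D4:**
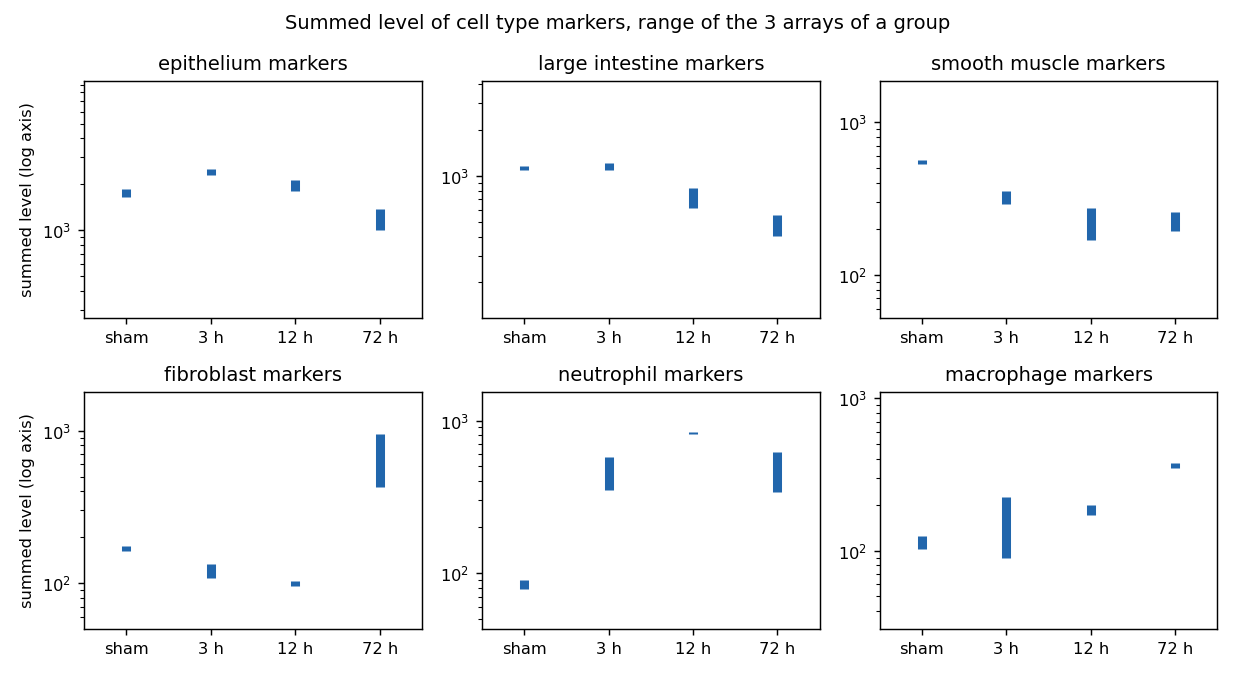
Range over the 3 arrays of a group of the summed linear level of the markers of 6 cell or tissue types, relative to the array's 75th percentile and on log axes of equal span. Epithelial markers were highest at 3 h and lowest at 72 h, fibroblast markers were highest at 72 h, and neutrophil markers were above sham at all 3 times.

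The Wnt pathway around these genes was examined in lists ordered by role. Of 21 genes for Wnt ligands and their secretion, 6 were above background on 0 arrays. At 3 h, 3 fell and 0 rose, namely Wnt9a (-1.66), Wnt6 (-1.58) and Wnt5a (-1.26), a stromal ligand that mostly acts without β-catenin. At 12 h Wnt9a (-1.35), Porcn (-1.22), which attaches the lipid that Wnt proteins need for secretion, and Wnt16, which was above background on 0 arrays, were called lower. At 72 h 0 were called in either direction, while 2 passed an adjusted p below 0.05 in limma with no fold threshold.

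Among 23 R-spondins, receptors and ligases, 3 fell and 1 rose at 3 h. Rspo1, a secreted R-spondin, had mean levels of -0.85 ± 0.11 (SD, n = 3) in sham, -3.80 ± 0.47 at 3 h, -3.27 ± 0.43 at 12 h and 0.64 ± 0.81 at 72 h. It fell by 2.95 at 3 h (adjusted p = 0.00082) and by 2.42 at 12 h, and rose by 1.49 at 72 h (adjusted p = 0.022). Both Rspo1 and Lgr5 were low at 3 h and 12 h, and whether the 2 are linked was not tested. Fzd2, a Frizzled receptor, fell by 2.89 and 1.76 at 3 h and 12 h. Rspo2 was called lower at all 3 times but was well above background on 2 sham arrays only. Fzd9 rose at 3 h (1.49) and Fzd10 fell at 12 h (-1.47). At 72 h 5 of the list rose, with Rspo1, Fzd9 (1.31), Fzd1 (1.15), Rspo3 (1.06) and Fzd4 (1.04), and Rspo2 was lower. The ligases Rnf43 and Znrf3, themselves Wnt targets that remove Frizzled, gave -0.76 and -0.67 at 12 h and were not called.

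Of 15 secreted and membrane Wnt inhibitors, 3 fell at 3 h (Dkk2 -1.46, Sfrp5 -1.35 and Kremen2 -1.09), and 3 fell at 12 h (Sfrp2 -2.64, Sfrp5 -2.14 and Dkk3 -1.0). At 72 h 5 rose and 0 fell, led by Sfrp2 (2.75), Frzb (2.46), Apcdd1 (2.05), Sfrp1 (1.98) and Wif1 (1.14), all of which bind Wnt ligands or their receptors outside the cell. The 72 h count of inhibitors was 1 with slide as a block. Of the 24 β-catenin and TCF components, 1 fell at 3 h, 1 fell at 12 h and 0 rose at either time, while 6 and 7 passed an adjusted p below 0.05 with no fold threshold. Many of all genes passed by that rule as well, with the counts given above. Bcl9l, a coactivator, fell at 3 h (-1.26), Tcf7l1, a TCF that mainly represses, fell at 12 h (-1.24), 0 were called at 72 h (6 passed in limma with no fold threshold), and Ctnnb1 itself was 0.83 higher at 3 h, under 2-fold.

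Of 20 other Wnt target genes, 4 rose and 1 fell at 3 h. Nkd1, a feedback inhibitor of the pathway like Axin2, fell by 1.19 at 3 h (adjusted p = 0.0026) and by 1.01 at 12 h (adjusted p = 0.0047) and stood at 0.06 at 72 h. At 3 h Sp5, a transcription factor, rose by 3.03 at 3 h, Myc, which drives growth, by 1.89, Mmp7, a protease, by 1.64 and Cd44, an adhesion receptor, by 1.62. At 12 h Mmp7 (3.03), Cd44 (1.86) and Sp5 (1.12) were higher, and at 72 h Mmp7 (2.31), Apcdd1 (2.05), Sp5 (1.62) and Cd44 (1.25). Cd44 and Myc are also expressed by leukocytes and stroma, and neutrophil markers, whose summed level was 78.7 to 90.5 in sham, were between 341 and 842 after cauterization. Their part in these rises was not tested.

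Among 25 other crypt stem and progenitor genes, some of them also in the list of Wnt targets, 0 fell and 4 rose at 3 h, namely Phlda1 (2.44), Dll1 (2.15), Cd44 and Clca3b (1.48). At 12 h 7 rose. Olfm4, a secreted protein that neutrophils make, was at least 5.47-fold higher than in sham, where no array read it above background (adjusted p = 0.0011). The part of neutrophils in its rise was not tested. The largest after Olfm4 were Cd44, Phlda1 (1.80), Clca3b (1.68) and Notch2 (1.40). At 72 h Cd44, Notch2 (1.13) and Phlda1 (1.03) were higher. With no fold threshold the 12 h count was 8 higher and 8 lower, so that smaller falls were not counted above. Of 17 genes of the regenerating epithelium, 12 rose at 3 h, 12 at 12 h and 9 at 72 h, and 0 fell at any time, with list medians of 2.23, 1.65 and 1.45. Several of these genes, such as Ptgs2, Il33, Cyr61 and Ankrd1, are also made by stroma, mesothelium or leukocytes. Neutrophil markers were above their sham sum at all 3 times and fibroblast and macrophage markers at 72 h, as given above and in the plot of marker sums, and their part in this list was not tested. At 3 h they included Ptgs2 (3.77), which makes prostaglandins, Areg (3.49), an EGF family ligand, Il33 (3.23) and Cyr61 (3.00), and Ankrd1 was at least 3.10-fold higher, likewise from a sham level not read above background. At 12 h Ptgs2 (4.96), Il33 (3.6) and Ly6a (3.01), a surface protein of fetal-like epithelium and of many leukocytes, were among the highest. Of 30 cell cycle genes, 0 were called at 3 h and 72 h and 1 fell at 12 h (Ccnb2, a mitotic cyclin, -1.09). Without the fold threshold limma gave 0 at 3 h, 2 at 12 h and 0 at 72 h, and list medians were -0.24, 0.01 and -0.25.

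**Figure D5:**
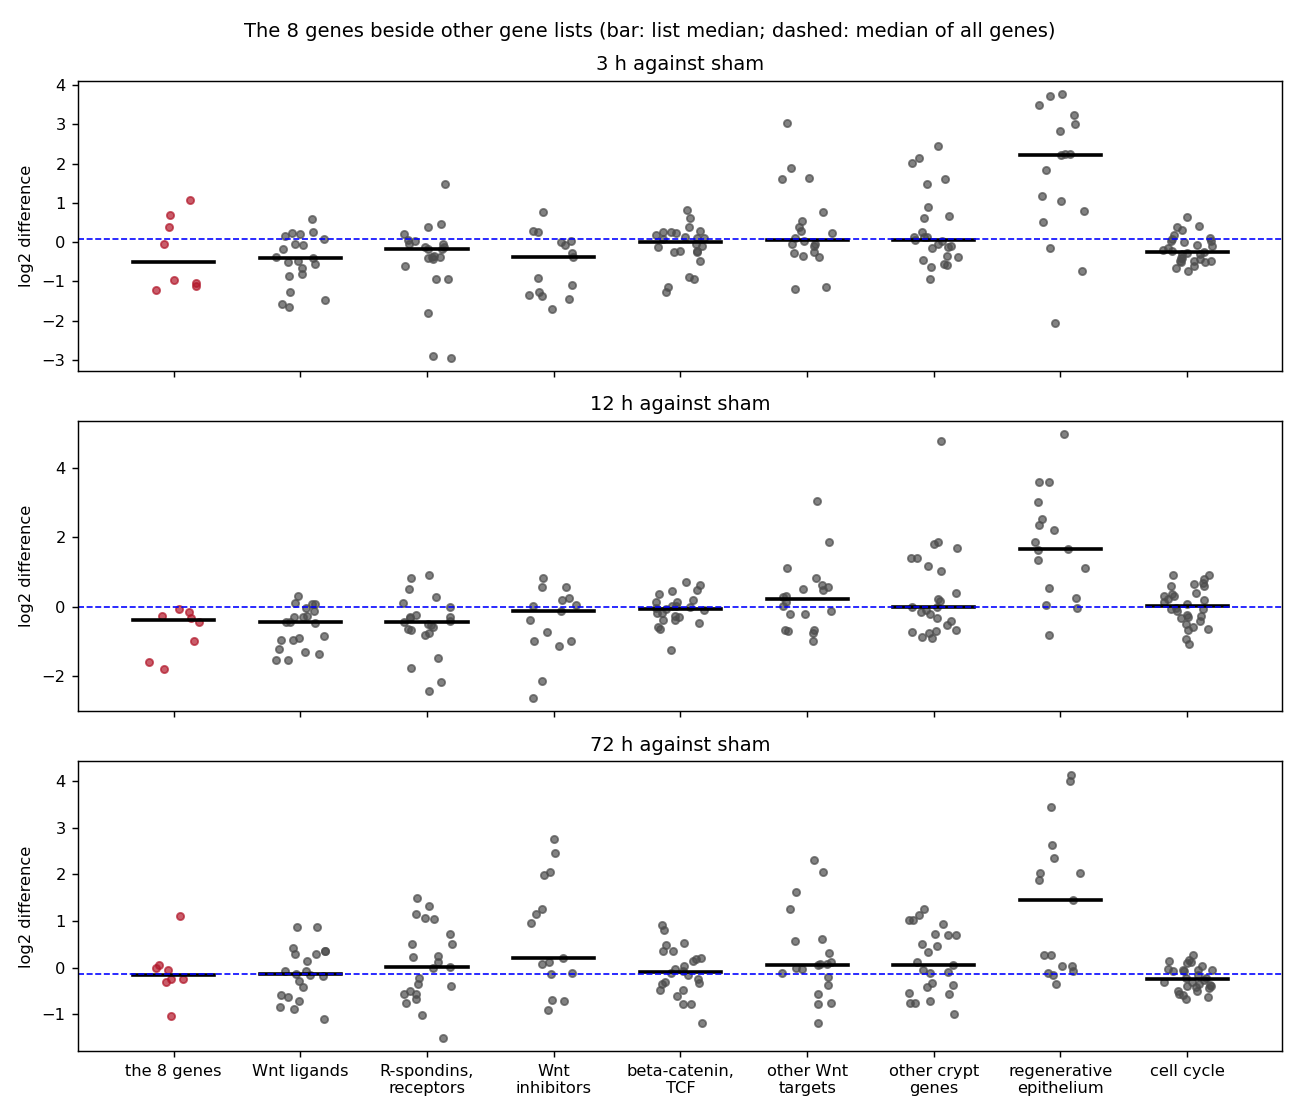
Log2 difference from sham of the 8 genes and of 8 other lists at the 3 times, with 1 point a gene, a bar for the list median and a dashed line for the median of all genes; some genes are in more than 1 list. The 8 genes spread to both sides of 0 at 3 h, the genes of the regenerating epithelium lie mostly above 1 and the cell cycle genes lie close to 0.

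The genes with the most similar course over the 12 arrays were found by the root mean square of the log2 difference after each gene was centred on its own mean, among 14277 candidates well above background. For Lgr5 these were P2ry14 (0.17) and Dkk3 (0.19), the latter a member of the inhibitor list. For Axin2 they were Zfp41 (0.20) and Rad51b (0.21), and for Ascl2 Itpka (0.27) and Ntng1 (0.29). Smoc2 lay nearest to P2rx7 (0.26) and Hes6 (0.28). Sox9 was closest to Plxna2 (0.18) and Cldnd1 (0.19), and Ephb2 to Rab10os (0.13) and Lima1 (0.13). For Lrig1, Zfp212 (0.08) and Tm2d2 (0.09) were nearest, and for Cdca7 Zfp599 (0.08) and Tomm7 (0.10). Among the members themselves, Lgr5 and Axin2 were 0.36 apart by this measure and Lgr5 and Sox9 0.87 apart. All values share the same 12 arrays.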

How the data were processed

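RNA of 12 cecum samples was read on 1-colour Agilent 8x60K arrays. The authors deposited scanner files holding, for every spot, a linear intensity that Agilent Feature Extraction had corrected for background and that was not scaled between arrays. Another deposited table holds log2 values that the authors scaled by the 75th percentile and that are centred for each probe. It served as an alternative (correlation with the recomputed levels, after each probe's median was subtracted, 1). Genes keep the names given by the array's design.

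Here control spots and 53 to 152 outlier spots per array were dropped, intensities were put on the log2 scale, spots of 1 probe were averaged, and each array's 75th percentile over non-control probes was subtracted. Groups came from the sample labels. limma 3.58.1 under R 4.3.3 fitted 4 group means to the 12 arrays, and p-values were adjusted over 56605 probes (Benjamini-Hochberg). Each gene was represented by its brightest probe on average. Calls needed a fold above 2 and an adjusted p below 0.05, the thresholds of the study. Where a gene was not above background in 1 group, its fold is a bound. Python 3.11.15 with pandas 2.3.3 handled the tables. The fit was tested on simulated data.

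Members and lists were chosen with earlier results of these data known. Besides the members, the text names up to 5 called genes per list and time by size of change, genes called against their list, 2 nearest genes per member, and genes of the sex check. Ctnnb1, Rnf43, Znrf3 and the pairs of members were named after their values were seen. Alternatives were quantile normalization, the percentile over probes above background, normexp (offset 50), the authors' table, removal of dim probes, keeping outlier spots, slide or replicate number as a block, 1 slide alone, trended and robust moderation, fitting 2 groups alone, averaging all probes of a gene, no fold threshold, treat, epithelial scaling, and omission of each array in turn.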

Additional observations from a re-analysis of the deposited data

Results flagged for a closer look

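Each of these members had changes from sham at 2 times that differed from each other, tested directly between the times with limma. Lgr5 was 1.0 higher at 72 h than at 12 h (adjusted p = 0.0134), Axin2 1.54 higher (adjusted p = 0.000993) and Smoc2 1.55 higher (adjusted p = 0.00114). Smoc2 was also 2.23 higher at 72 h than at 3 h (adjusted p = 0.000103). Ephb2 at 12 h against 3 h gave -1.03 (adjusted p = 0.00196) and Sox9 -1.15 (adjusted p = 0.00582), and Sox9 at 72 h against 3 h gave -1.01 (adjusted p = 0.00257). With slide as a block, the values at 72 h were 1.01 for Lgr5 (adjusted p = 0.137), 1.30 for Axin2 (adjusted p = 0.0358) and 1.39 for Smoc2 (adjusted p = 0.0376) against 12 h, and -0.92 for Sox9 against 3 h (adjusted p = 0.118). Relative to epithelial markers the Sox9 difference between 72 h and 3 h was -0.07 (adjusted p = 0.761). The values above come from each gene's brightest probe. By probe 2, Ephb2 (-0.60) and Sox9 (-0.75) fell by less than 2-fold from 3 h to 12 h, as did Sox9 from 3 h to 72 h (-0.62). From 12 h to 72 h probe 2 gave 0.82 for Lgr5 (adjusted p = 0.101). It gave 0.38 for Axin2 (adjusted p = 0.621), unread at both times. Smoc2 was called by probe 2 in both comparisons (1.44 and 2.04). By probe 3 it was called against 12 h (1.26) but not against 3 h (0.47).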

How the results depend on the processing

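Of the 15 member differences that were called, 0 turned sign over 401 values under the alternatives, 314 kept their call and 87 lost it. Among the 33 not called, 33 of 879 values passed and 36, in 16 differences, turned sign. Many of these values could not move. The replicate block, trended moderation, fitting 2 groups alone, treat, and omission of an array outside the comparison leave the estimate as it was. Dropping the fold threshold cannot lose a call. These counts therefore do not measure how firm the calls are. The count of members called at 3 h (3) was 5 with no fold threshold and 0 by treat, which tests against a 2-fold change. Of all 37074 genes, 3336 were higher and 3597 lower at 3 h with no fold threshold. At 12 h (3) it was 1 with normexp and 0 by treat. At 72 h (2) it was 1 with quantile normalization, another percentile, normexp, the authors' table, outlier spots kept, the 2 groups alone or epithelial scaling, and 0 with slide as a block, the mean of all probes or treat. From 3 h to 12 h (2) it was 1 with quantile normalization, the other percentile, slide as a block or slide 1 alone, and 0 with normexp, the mean of all probes, treat or epithelial scaling. From 12 h to 72 h (3) it was 1 with normexp or the mean of all probes and 0 by treat. Within slide 2 it was 0, but there 12 h had 1 array and 0 genes of the whole array were called higher, so that this count says nothing of the rises. From 3 h to 72 h (2) it was 1 with quantile normalization, normexp, slide as a block or treat, and 6 with no fold threshold. By that last rule 4370 of all 37074 genes were higher and 9919 lower. Losses of calls were not confined to the members. Over the whole array, normexp took the 12 h calls from 1521 to 824 higher and from 1839 to 503 lower. Its 3 h calls were 630 higher, 207 lower, where the main fit gave 1209 higher, 1523 lower. Slide as a block took the 72 h calls from 1687 to 591 higher and from 1595 to 561 lower. The authors' table left them at 1688 higher, 1585 lower. The cause was not tested, except that treat and the fold threshold act by construction on differences near 2-fold. The mean of all probes, also by construction, takes in probes that were not read above background. For Ascl2 at 72 h it joins -1.03 of the first probe with 0.22 of the unread second. It also takes in dimmer probes that were read on all 12 arrays and moved less. From 3 h to 12 h the second probes of Sox9 and Ephb2 gave -0.75 and -0.60. The third probe of Smoc2 gave 0.27 at 72 h.

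Leaving out 1 array gave 2 to 5 members at 3 h (5 without replicate 1 of 3 h), 2 to 3 at 12 h, 0 to 2 at 72 h (0 without replicate 1 of sham), 1 to 2 from 3 h to 12 h (1 without replicate 2 or 3 of 12 h), 2 to 3 from 12 h to 72 h, 1 to 3 from 3 h to 72 h (1 without replicate 2 of 3 h or replicate 3 of 72 h) and 6 to 7 in the F-test. At 72 h it was 1 without replicate 2 or 3 of sham, replicate 2 of 3 h, replicate 2 or 3 of 12 h, or any 72 h array. The replicate numbers of the labels did not pair the samples (correlations of same-numbered deviations from -0.162 to 0.0866), and with the replicate block the 72 h count was 1 (Smoc2) and no other count of members moved by over 1.5 times.

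The list counts moved as well. Over all alternatives the counts at the 3 times, in order, ranged from 0 to 5, 0 to 5 and 0 to 2 for ligands (3, 3 and 0 in the report), 2 to 7, 0 to 10 and 0 to 9 for R-spondins and receptors (4, 4 and 6), 0 to 5, 0 to 5 and 1 to 6 for inhibitors (3, 3 and 5), 0 to 6, 0 to 7 and 0 to 6 for β-catenin and TCF components (1, 1 and 0), 2 to 6, 2 to 10 and 1 to 9 for other Wnt targets (5, 4 and 4), 2 to 11, 2 to 16 and 0 to 12 for other crypt genes (4, 7 and 3), 9 to 12, 6 to 12 and 5 to 9 for the regenerating epithelium (12, 12 and 9), and 0 to 3, 0 to 3 and 0 for the cell cycle (0, 1 and 0).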
